A study of Mus musculus with 31 samples.

Results

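Transcripts of 10 genes of oocyte origin were followed in single 2-cell mouse embryos. They were the oocyte-secreted protein genes Oosp1, Oosp2 and Oosp3, the oocyte maturation genes Omt2a and Omt2b, the zona pellucida genes Zp1, Zp2 and Zp3, and the growth factor genes Gdf9 and Bmp15. These 10 members were found by gene symbol among the 20544 genes of the count table, and all 10 had counts. The set was chosen from values of the same comparison reported here, because Oosp3 was lower in embryos generated with SER sperm, so the difference of Oosp3 between groups is given as a description without a test. The table holds 31 embryos, 16 control-generated and 15 SER-generated. All were wild type and came from oocytes of superovulated CD1 females 8 to 10 weeks old, inseminated in vitro with sperm of C57BL/6J males 12 to 14 weeks old. In SER (sperm energy restriction and recovery), sperm were kept in medium without glucose and pyruvate until they stopped moving, after 15 to 45 min, and were then returned to complete medium, whereas control sperm stayed in complete medium. The treatment reached the sperm only, and the embryos of both groups were collected 32 h after insemination. Each value comes from 1 embryo, and the labels do not give the male, the female or the batch of an embryo, so p-values measure the spread between embryos. The paper describes independent batches of embryos, and by its protocol a male gave 1 cauda epididymis to each treatment. Neither could be fitted, so the tests treat embryos as independent and the groups as unpaired.

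A mouse oocyte stores RNA made during its growth, and after fertilization this maternal RNA is degraded while the embryonic genome is activated at the 2-cell stage. The products of Zp1, Zp2 and Zp3 build the zona pellucida, the coat that sperm bind and cross, and GDF9 and BMP15 are ligands of the transforming growth factor family that the oocyte sends to its cumulus cells. Transcripts of these genes in a 2-cell embryo are generally a remainder of the oocyte's store.

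Library totals on genes ran from 532945 to 2085222 counts in control-generated embryos (median 955806.5) and from 642321 to 3088396 in SER-generated embryos (median 1375557). Counts scaled to a common library total (counts per 1000000, CPM) are shares of such a total, so a lower CPM cannot be told apart from more RNA of other genes. No embryo had 0 counts of any member, and the smallest value was 1 count of Oosp2, in control embryo 15. Summed markers of cumulus and granulosa cells (16 genes, of which 1 had no count in any control-generated embryo and 2 in any SER-generated embryo) had a median of 29.6 CPM in control-generated embryos (range 0.874 to 3704) and 12.9 CPM in SER-generated embryos (range 2.33 to 30.0). The value of 3704 CPM was that of control embryo 5, whose Oosp3 level was 359 CPM. Without this embryo the Oosp3 difference given next was -2.02 on the log2 scale. Control embryos 2 and 6 to 11 were also above every SER-generated embryo. Control embryo 2 had 33.6 CPM, and embryos 6 to 11 had sums from 59.7 CPM (control embryo 10) to 131 CPM (control embryo 8). The part of these markers in the Oosp3 difference and in the other results was not tested. Summed sperm markers, 7 genes, were at most 30.9 CPM.

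Oosp3 encodes a member of a small family of secreted oocyte proteins. In control-generated embryos it was measured at 208 CPM in the lowest, 449 CPM in the median and 6061 CPM in the highest embryo. In SER-generated embryos the corresponding values were 104, 263 and 526 CPM. The groups overlapped: 14 of 15 SER-generated embryos lay below the control median, 5 of them below the lowest control embryo, and 5 control embryos lay above the highest SER-generated embryo. The means were 926 ± 1456 CPM (SD, n = 16) and 270 ± 122 CPM (SD, n = 15). The fitted log2 fold change, SER minus control, was -1.95 with a standard error of 0.44.

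A large share of this difference came from control embryos 1 and 3, with 2325 and 6061 CPM of Oosp3, where the next control embryo had 886 CPM. Without both, the control mean was 460 ± 179 CPM (SD, n = 14) and the log2 fold change was -0.78 with a standard error of 0.24. Without control embryo 3 alone it was -1.18. Without the embryos numbered 1 to 3 in both groups, the means were 464 ± 186 CPM (SD, n = 13) and 248 ± 111 CPM (SD, n = 12), and the log2 fold change was -0.90. Oosp3 was thus lower in SER-generated embryos with and without these embryos, and the fitted difference was smaller without them. These embryos were left out after their values had been seen.

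**Figure D1:**
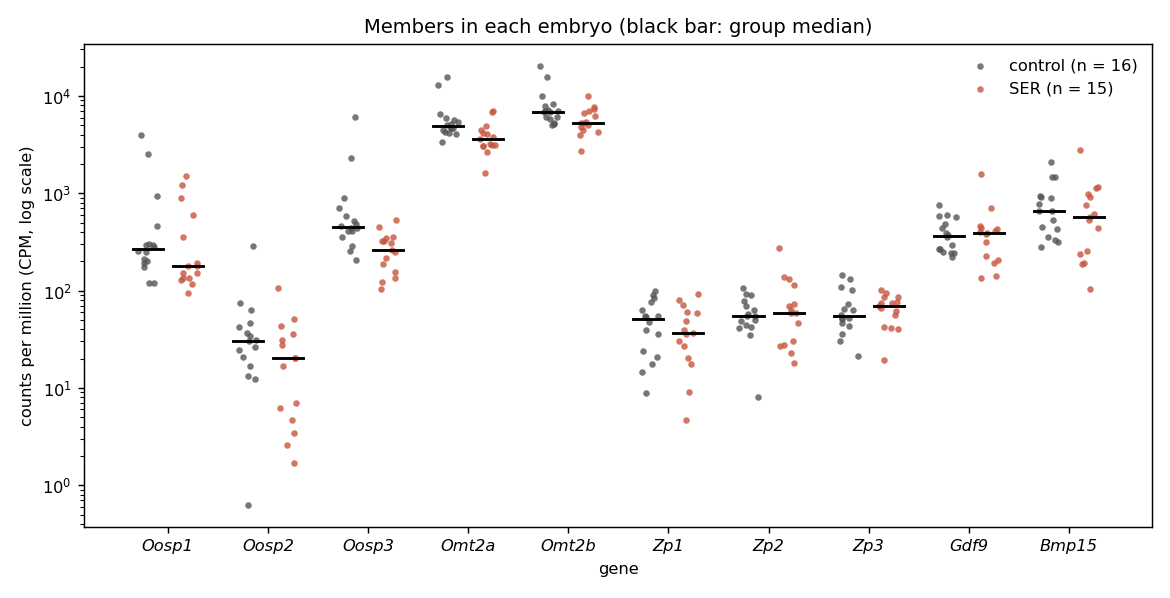
CPM (log scale) of the 10 members in each embryo, with control-generated embryos in grey, SER-generated embryos in red and group medians as black bars. Oosp3 has medians of 449 and 263 CPM, and the 2 highest control points of Oosp3 are 2325 and 6061 CPM.

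Oosp3 lies on chromosome 19 of the mouse genome (GRCm38, GENCODE vM21) at chr19:11697055-11711874 on the plus strand, with Oosp1 at chr19:11667460-11691150 and Oosp2 at chr19:11647279-11660559, both on the minus strand. Oosp2 and Oosp1 are separated by 6900 bases with no annotated gene between them, and Oosp1 and Oosp3 by 5904 bases. The exons of Oosp3 share 57 bases with a processed pseudogene on the opposite strand, Gm19224, and since the strand setting of the counting is not given in the sources used here, reads of this stretch cannot be assigned to a strand. Read in transcript orientation, no stretch of 45 or 30 bases, the lengths of the 2 reads, of Oosp1, Oosp2 or Oosp3 occurred in a transcript of another gene. Matches to the opposite strand, such as that of Gm19224, were not searched for.

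Oosp1, another gene of the family, was measured at 118, 268 and 3983 CPM in the lowest, median and highest control-generated embryo, and at 94.2, 179 and 1505 CPM in SER-generated embryos. Its log2 fold change was -0.92 with a standard error of 0.55 (edgeR's quasi-likelihood test, adjusted p = 0.89), and it did not pass the threshold of 0.1. The embryos numbered 1 to 3 stood apart in both groups, with 2559, 941 and 3983 CPM in control and 885, 1505 and 1210 CPM in SER. The other 25 embryos lay between 94.2 and 604 CPM, so the 2 sets of numbers did not overlap for Oosp1. This split was seen in the values, and the labels do not say what these numbers stand for. Within the embryos numbered 1 to 3 the means were 2494 ± 1522 CPM in control and 1200 ± 310 CPM in SER (SD, n = 3 each), and in the others 242 ± 91.3 (SD, n = 13) and 201 ± 142 (SD, n = 12). Without control embryos 1 and 3 alone, the sign of the Oosp1 difference turned, to a log2 fold change of 0.44. This fit kept SER embryos 1 to 3, which were also high. Without the embryos numbered 1 to 3 in both groups the Oosp1 log2 fold change kept its sign, at -0.22 with a standard error of 0.29.

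**Figure D2:**
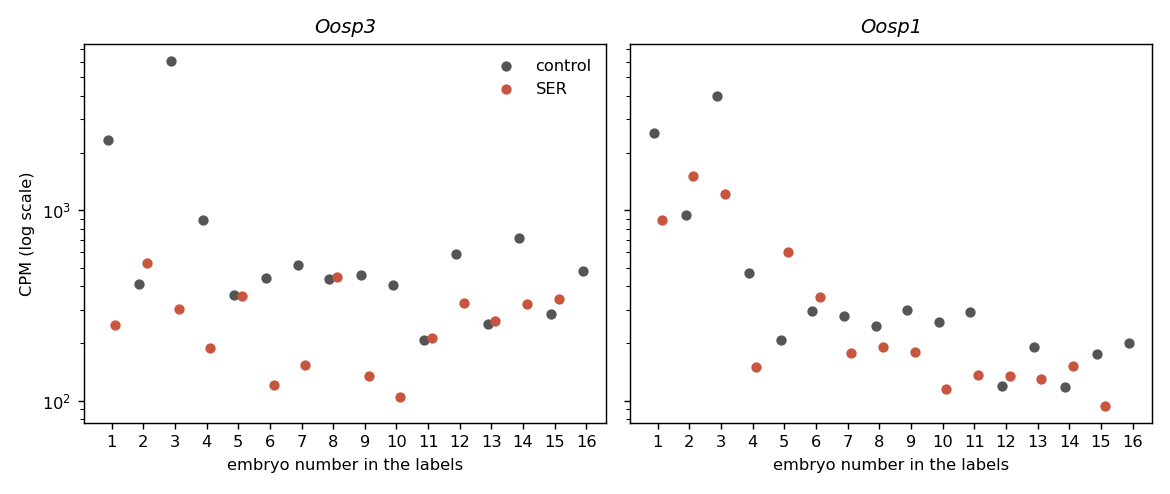
CPM (log scale) of Oosp3 (left) and Oosp1 (right) against the number that the labels give each embryo, control-generated in grey and SER-generated in red. For Oosp1 the embryos numbered 1 to 3 are at 885 CPM or more in both groups, and for Oosp3 only control embryos 1 and 3 are far above the rest.

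Oosp2 was the least abundant of the 3, with 0.628, 30.4 and 285 CPM in the lowest, median and highest control-generated embryo and 1.71, 20.1 and 107 CPM in SER-generated embryos. Its log2 fold change was -1.02 with a standard error of 0.55 (edgeR's quasi-likelihood test, adjusted p = 0.87). It was -0.35 without control embryo 3 and -1.45 without SER embryo 15, the highest embryo of each group. Without control embryos 1 and 3 the means were 28.4 ± 16.02 CPM (SD, n = 14) and 25.2 ± 27.6 CPM (SD, n = 15). The groups overlapped, and no SER-generated embryo lay outside the control range of Oosp2.

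Omt2a and Omt2b are a pair of related genes named for oocyte maturation, on chromosome 9 at chr9:78311972-78314796 (minus strand) and chr9:78327589-78329620 (plus strand), with 12792 bases between them. Their coding sequences, 303 and 360 bases in the longest complete form of each, were identical at 81.3% of the 294 aligned bases. The last 120 coding bases were the same in both. Of all stretches of 45 bases in their transcripts, 38.2% of those of Omt2a occurred in Omt2b, so reads that lie wholly in the shared part cannot be assigned to 1 gene. The authors kept only uniquely mapping 5′ reads, and how internal reads that match both genes were counted is not given in the sources used here, so the split of the counts between both genes is uncertain. The sequences are shown because they tell where the genes differ. A coding stretch of 90 bases with 34 differences, in capitals, reads 5′ to 3′ on the transcript strand (chr9:78312966-78313055 and chr9:78328542-78328631, GRCm38):

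Omt2a: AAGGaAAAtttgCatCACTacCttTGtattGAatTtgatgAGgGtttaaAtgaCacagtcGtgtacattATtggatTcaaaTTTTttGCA

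Omt2b: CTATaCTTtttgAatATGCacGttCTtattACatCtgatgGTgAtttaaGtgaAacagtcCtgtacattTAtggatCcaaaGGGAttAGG

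A coding stretch that starts shortly after it is the same in both genes over 90 bases, spliced from 2 exons within chr9:78312278-78312962 for Omt2a and within chr9:78328635-78329323 for Omt2b, and gives no base to tell them apart:

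Omt2a and Omt2b: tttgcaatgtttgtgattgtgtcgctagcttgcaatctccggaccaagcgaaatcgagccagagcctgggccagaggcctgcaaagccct

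Both genes were the most abundant members. Omt2a was at 3340, 4866 and 15810.4 CPM in the lowest, median and highest control-generated embryo and at 1596, 3575 and 6971 CPM in SER-generated embryos. Omt2b was at 5065, 6845 and 20338 CPM in control and at 2686, 5314 and 10070.4 CPM in SER. For Omt2a 7 of 15 SER-generated embryos lay below the lowest control embryo, and for Omt2b 6 of 15. The log2 fold changes were -0.71 ± 0.25 for Omt2a and -0.58 ± 0.23 for Omt2b (standard error), and neither passed the threshold (edgeR's quasi-likelihood test, adjusted p = 0.61 and 0.74). The 2 highest embryos of both genes were again control embryos 1 and 3, and without them the log2 fold changes were -0.31 and -0.23. Within an embryo the ratio of Omt2b to Omt2a counts ran only from 1.11 to 1.70, with Omt2b the higher in 31 of 31 embryos.

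The zona pellucida genes lie apart from each other, Zp1 at chr19:10914287-10920632, Zp2 at chr7:120126772-120145291 and Zp3 at chr5:135980099-135988624. Zp1, whose product links zona filaments, had medians of 50.6 CPM in control (range 8.78 to 99.8) and 36.9 CPM in SER (range 4.66 to 91.9). Zp2, whose product is cleaved after fertilization so that further sperm are blocked, had medians of 54.8 CPM in control (range 7.98 to 107) and 58.8 CPM in SER (range 17.9 to 274). Zp3, which encodes the partner of ZP2 in the filaments, had medians of 54.4 CPM in control (range 21.5 to 143) and 70.1 CPM in SER (range 19.5 to 102). The groups overlapped for all 3, and the log2 fold changes were -0.26 ± 0.35, 0.38 ± 0.34 and -0.10 ± 0.27 (standard error). None passed the threshold (edgeR's quasi-likelihood test, adjusted p = 0.97, 0.94 and 0.98). At these levels the lowest embryo held 6 counts of Zp1, 13 of Zp2 and 14 of Zp3.

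Gdf9 lies at chr11:53431023-53437904 and Bmp15 at chrX:6314107-6320721. Gdf9 was at 223, 366 and 764 CPM in the lowest, median and highest control-generated embryo and at 136, 389 and 1564 CPM in SER-generated embryos. Bmp15 was at 282, 658 and 2094 CPM in control and at 103, 568 and 2775 CPM in SER. For Bmp15 5 of 15 SER-generated embryos lay below the control range and 1 above it, and for Gdf9 4 below and 1 above. The SER-generated embryos thus had the wider range for both growth factors, with SER embryo 15 the highest and SER embryo 7 the lowest. The log2 fold changes were 0.09 ± 0.28 for Gdf9 and -0.17 ± 0.37 for Bmp15 (standard error; edgeR's quasi-likelihood test, adjusted p = 0.98 for both).

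Of the 10 members 8 were lower and 2 higher in SER. Their median log2 fold change was -0.42, beside 0.02 over all 8571 tested genes, of which 4056 were lower and 4515 higher. By edgeR's quasi-likelihood test at an adjusted p under 0.1, no gene was called (0% of 8571), and so no member. At an unadjusted p under 0.05, 491 genes were called (5.73%), among them the members Oosp3, Omt2a and Omt2b. By DESeq2 at an adjusted p under 0.1, 49 genes were called (0.572%), among them Oosp3 (log2 fold change -1.17). By limma voom with quality weights 848 genes were called (9.89%), among them Oosp3 and Bmp15. The members were chosen with this comparison in view, and Oosp3 for its difference, so its calls here are not a test of that difference. Nothing about the members is read from these counts.

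**Figure D3:**
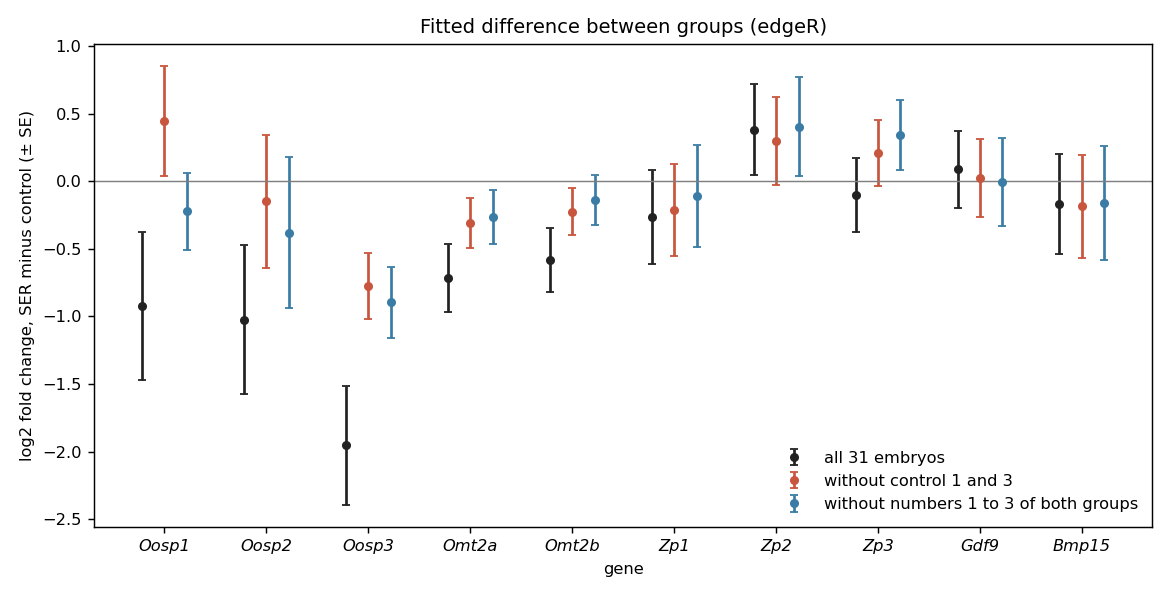
Log2 fold change, SER minus control, of each member from edgeR, with bars of 1 standard error, for all 31 embryos (black), without control embryos 1 and 3 (red) and without the embryos numbered 1 to 3 in both groups (blue). Oosp3 moves from -1.95 to -0.78 and -0.90 and stays below 0, and Oosp1 crosses 0 to 0.44 when control embryos 1 and 3 are left out. Without the embryos numbered 1 to 3 in both groups Oosp1 is at -0.22.

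Levels of the members were compared per exon length, as CPM per kilobase of exon (RPKM). Smart-seq3 gives reads from the 5′ end and from inside a transcript, so counts are not strictly proportional to length. In order of median RPKM over the 31 embryos, Omt2b was at 4067, Omt2a at 3033, Oosp3 at 430, Oosp1 at 215, Bmp15 at 201, Gdf9 at 189, Zp3 at 47.4, Oosp2 at 38.4, Zp2 at 21.3 and Zp1 at 19.9. The growth factor transcripts were thus several times as abundant as those of the zona genes.

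Of the 9 pairs of neighbours in this order, 4 differed beyond the spread between embryos (2-sided sign-flip permutation test of log2(RPKM + 1), adjusted over the 9 pairs). Omt2b was above Omt2a in 31 of 31 embryos (adjusted p = 3e-05), and Omt2a above Oosp3 in 31 of 31 (adjusted p = 3e-05). Oosp3 was above Oosp1 in 23 of 31 embryos (permutation test, adjusted p = 0.021), but on CPM without the length correction in 20 of 31 (permutation test, adjusted p = 0.15). The mean log2 ratio of Oosp3 to Oosp1 counts was 0.70 ± 0.91 in control (SD, n = 16) and -0.06 ± 1.25 in SER (SD, n = 15). Gdf9 was above Zp3 in 31 of 31 (adjusted p = 3e-05), and 3e-05 is the smallest adjusted value that these permutations gave. The other 5 pairs, from Oosp1 and Bmp15 (adjusted p = 0.086) to Zp2 and Zp1 (adjusted p = 0.62), did not differ beyond their spread.

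Whether the members vary together from embryo to embryo was examined on log2(CPM + 1) after removing the mean of each group, which the choice of members did not use. By Pearson's r, 4 of the 9 other members correlated with Oosp3 past an adjusted p of 0.05 (permutation within groups, adjusted over the 9 members). They were Oosp1 (r = 0.63, adjusted p = 0.0085), Omt2b (r = 0.61, adjusted p = 0.0098), Omt2a (r = 0.58, adjusted p = 0.0099) and Oosp2 (r = 0.50, adjusted p = 0.017), each by the permutation test. By Spearman's rho none of the 9 passed. The lowest adjusted permutation p was 0.056, shared by Oosp2, Omt2a, Omt2b, Zp2, Gdf9 and Bmp15, whose rho lay between 0.38 and 0.48 with raw p from 0.0062 to 0.038.

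Over both groups the Pearson relations of these 4 rested on control embryos 1 and 3, the 2 embryos farthest from the Oosp3 median. Without them r was 0.25 for Oosp1, 0.28 for Oosp2, 0.07 for Omt2a and 0.14 for Omt2b. Over the same 29 embryos Zp2, Gdf9 and Bmp15 instead correlated with Oosp3, with r of 0.57, 0.56 and 0.57 and rho of 0.60, 0.63 and 0.60 (permutation test, adjusted p of rho = 0.0039 for each). Without the embryos numbered 1 to 3 in both groups, rho of these 3 was 0.63, 0.60 and 0.58. The set of members that passed also changed with the scaling when all 31 embryos were kept. On library totals scaled by TMM, the scaling of the edgeR fit, 6 passed by rho, namely Oosp2, Omt2a, Omt2b, Zp2, Gdf9 and Bmp15. With the library total and the number of detected genes regressed out, 4 passed by rho, namely Oosp1, Oosp2, Omt2a and Omt2b.

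Within the groups, examined after the values had been seen, Omt2b and Oosp3 had r = 0.95 and rho = 0.86 over the 16 control-generated embryos (permutation adjusted p = 0.00018 and 0.0013 over 18 relations). Over the 15 SER-generated embryos they had r = -0.13 and rho = -0.06 (permutation adjusted p = 0.72 and 0.83). Without control embryos 1 and 3, the 14 remaining control-generated embryos still gave r = 0.76 and rho = 0.78 for Omt2b (permutation adjusted p = 0.016 and 0.013 over 9 members). Omt2a had r = 0.91 and rho = 0.69 in control (permutation adjusted p = 0.0013 and 0.039) and r = -0.08 and rho = 0.16 in SER, and without control embryos 1 and 3 the control values were 0.52 and 0.53 (permutation adjusted p = 0.10 and 0.11). In control-generated embryos Omt2b thus followed Oosp3 also without the 2 highest embryos, and the difference between groups was not tested. Bmp15 had rho of 0.32 in control and 0.56 in SER, Gdf9 0.14 and 0.51, and Zp2 0.26 and 0.50, none past an adjusted p of 0.05. Oosp1 passed by r alone in control (r = 0.78, rho = 0.33, permutation adjusted p = 0.021 and 0.42), with r at -0.0038 without control embryos 1 and 3. Without these embryos Zp2 passed by r alone in control (r = 0.69, rho = 0.64, permutation adjusted p = 0.026 and 0.063).

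**Figure D4:**
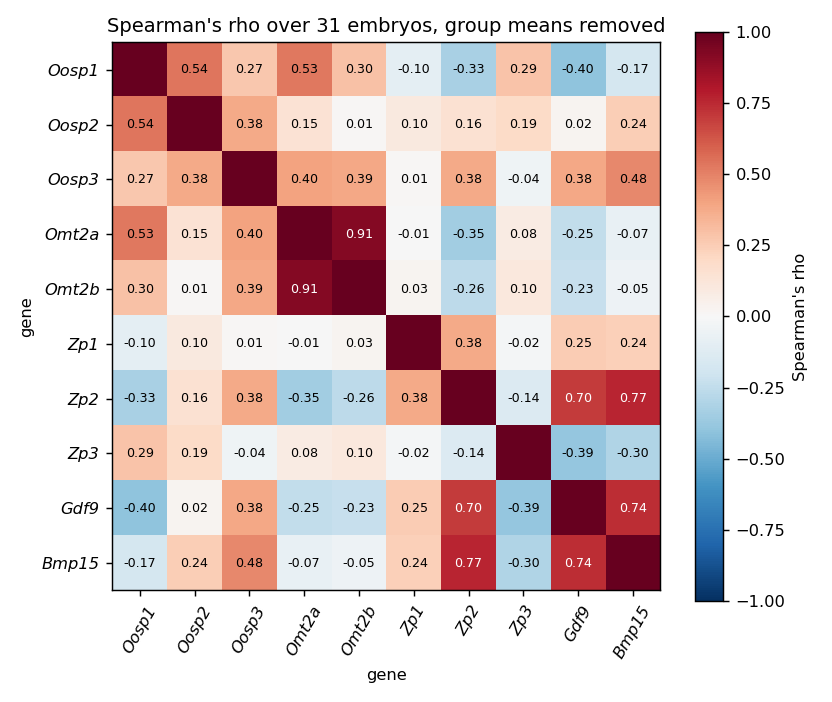
Spearman's rho between each pair of members over 31 embryos after removing group means, from blue (-1) through white (0) to red (1). The Omt2a and Omt2b pair reaches 0.91, and Zp2, Gdf9 and Bmp15 form a block from 0.70 to 0.77.

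Among the 36 pairs without Oosp3, examined after the values had been seen, the closest was Omt2a with Omt2b (r = 0.96, rho = 0.91, permutation adjusted p = 9e-05 and 0.00018 over the 36 pairs), and r was 0.92 without the 2 farthest embryos. The shared sequence of this pair was given above. Zp2 and Bmp15 had r = 0.79 and rho = 0.77 (permutation adjusted p = 9e-05 and 0.00018). Gdf9 and Bmp15 had r = 0.79 and rho = 0.74, and Zp2 and Gdf9 r = 0.71 and rho = 0.70 (permutation adjusted p of rho = 0.00036 for both). Leaving out the 2 farthest embryos of each left r at 0.75, 0.68 and 0.64. Zp2 and both growth factors, which lie on 3 chromosomes, thus varied together between embryos, whereas Zp1 and Zp3 did not pass in any of the 36 pairs. In all, 10 pairs passed by Pearson's r and 6 by Spearman's rho. Those that passed by Pearson's r alone included Omt2a with Zp2 (r = -0.55, rho = -0.35, permutation adjusted p = 0.015 and 0.22). Oosp1 correlated with Omt2a (r = 0.65, rho = 0.53, permutation adjusted p = 0.0031 and 0.016), with r of 0.37 without control embryos 1 and 3 and 0.74 without the embryos numbered 1 to 3. Oosp1 also correlated with its neighbour Oosp2 (r = 0.51, rho = 0.54, permutation adjusted p = 0.025 and 0.016), and r was 0.34 without control embryos 1 and 3 and 0.04 without the embryos numbered 1 to 3.

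Embryos also differed in the summed CPM of 22 genes switched on at the 2-cell stage. This sum is a share of the library, and how far genome activation had gone was not measured otherwise. Medians were 1742 CPM in control (range 226 to 3617) and 2117 CPM in SER (range 425 to 3388). Control embryo 4 and SER embryo 15 had the lowest sums, and the highest Bmp15 of their groups, 2094 and 2775 CPM. Bmp15 was lower where this sum was higher (r = -0.71, rho = -0.71, permutation adjusted p = 0.0006 for both over 30 relations examined after the values had been seen), and r was -0.60 without these 2 embryos. Control embryos 1 and 2 and SER embryos 1 to 3 had sums of 3061 to 3617 CPM. All other embryos were lower, at most 2782 CPM (SER embryo 7), and control embryo 3 had 1762 CPM. Relations with the sum were not computed without the embryos numbered 1 to 3. Gdf9 and Zp2 had r of -0.58 and -0.57 (permutation adjusted p = 0.0096 and 0.025) and rho of -0.51 and -0.49 (permutation adjusted p = 0.060 for both). Oosp3 had r = -0.06 and rho = -0.12 with this sum (permutation adjusted p = 0.87 and 0.75). None of the 20 relations with the library total or the number of detected genes passed.

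**Figure D5:**
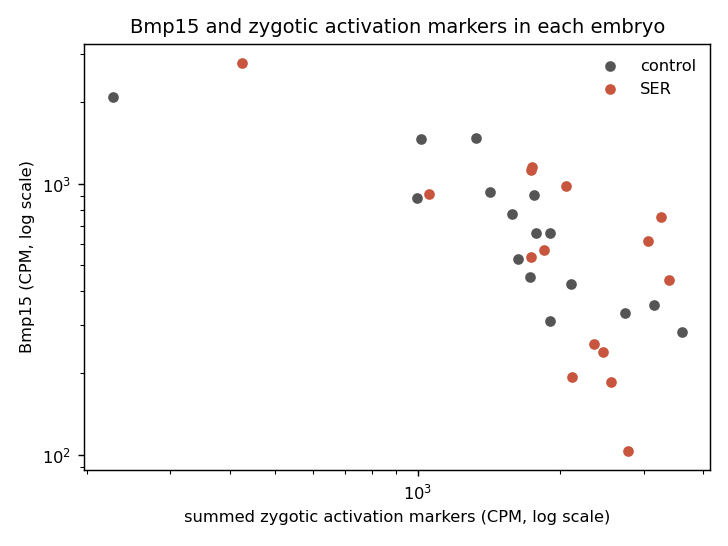
Bmp15 against the summed CPM of 22 genes of 2-cell genome activation in each embryo, both on log scales, control-generated in grey and SER-generated in red. The 2 points at the upper left are control embryo 4 (226 CPM of markers, 2094 CPM of Bmp15) and SER embryo 15 (425 and 2775 CPM).

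Outside the members, the genes whose pattern over the 31 embryos was most like that of Oosp3, among 8561 tested genes and by Spearman's rho after removing group means, were Rfpl4 (0.82), Obox1 (0.80), Obox5 (0.80), H1f8 (0.75) and Pigf (0.74). Rfpl4 encodes an oocyte RING finger protein, Obox1 and Obox5 are oocyte homeobox genes, and H1f8 encodes the oocyte linker histone. Of the stretches of 45 bases in their transcripts, 60.3% for Obox1 and 22.1% for Obox5 also occurred in other genes, of which the first 5 by number shared were Obox genes or pseudogenes, so their counts are uncertain. Without the embryos numbered 1 to 3, rho of the 5 lay between 0.59 and 0.87. The 3 least like Oosp3 were Cdip1 (-0.79), Puf60 (-0.79) and Zfp710 (-0.78). Over all 8561 genes the median rho was -0.09, with 5th and 95th percentiles of -0.55 and 0.43. The values of an embryo share 1 library, so these are descriptions.

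Genes related to the members or to the oocyte were described from lists. Of oocyte growth factors and receptor kinases, a list that also holds Kit, Igf1r and Fgf8, 12 of 14 were tested and none was called. Of those tested, 5 were higher and 7 lower in SER, and the median log2 fold change was -0.10. The most abundant were Tgfb2 (369 ± 171 and 357 ± 237 CPM in control and SER, SD) and Bmpr2, a receptor that GDF9 and BMP15 use (140 ± 39.3 and 167 ± 58.7 CPM). Of SMAD signalling and processing genes 7 of 13 were tested, 1 higher and 6 lower, with a median of -0.28. Smad3, which transmits the GDF9 signal, was at 224 ± 156 and 195 ± 63.3 CPM. Of oocyte membrane and cortical granule genes 3 were tested, and Astl, whose product cleaves ZP2, was at 25.4 ± 13.0 and 27.9 ± 15.1 CPM.

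Of oocyte transcription regulators 7 of 11 were tested, 4 higher and 3 lower, with a median of 0.06. Of 30 symbols listed for other maternal transcripts, 29 were in the count table and 26 were tested. Among them are Rfpl4, Obox5 and H1f8, named above as most like Oosp3. Of the 26, 6 were higher and 20 lower, with a median of -0.21, beside 0.02 over all tested genes. By edgeR 4 of the 26 had an unadjusted p under 0.05, as did 5.73% of all tested genes. Bcl2l10, a maternal member of the BCL2 family, had the largest difference of the 4 most abundant, at 2591 ± 2126 and 1270 ± 1008 CPM (log2 fold change -1.10, edgeR's quasi-likelihood test, adjusted p = 0.50). Of the genome activation genes 19 were tested, 16 higher and 3 lower, with a median of 0.22. No gene of these lists was called by edgeR at an adjusted p under 0.1.

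RefSeq promoters on GRCm38.p6, 250 bases before to 50 after the start, were found for 6 of the 10 members, Oosp1, Oosp2, Omt2a, Omt2b, Zp3 and Bmp15. FIGLA, a regulator of the zona genes in the oocyte, binds E-boxes (CANNTG), and NOBOX, a regulator of the growth factor genes, binds TAATTG and TAATTA. Both strands were searched. All 6 promoters held an E-box, as did 72.3% of 32851 promoters, with 5 matches in Oosp1, 4 in Zp3, 3 in Omt2a, 2 in Omt2b and 1 each in Oosp2 and Bmp15. TAATTG was found in that of Omt2b (8.00% of all promoters) and TAATTA in that of Bmp15 (5.29%). These are matches of letters and not binding sites. The part that lies before the RefSeq start and outside annotated exons is shown for the 2 pairs of neighbouring genes that correlated, 5′ to 3′ with matches in capitals. For Omt2a and Omt2b this part lies within the gene's span, in an intron of another transcript that GENCODE starts farther out. The stretches lie at chr9:78314049-78314298 (minus strand) for Omt2a, chr9:78327780-78328029 (plus strand) for Omt2b, chr19:11691151-11691301 (minus strand) for Oosp1 and chr19:11660560-11660809 (minus strand) for Oosp2.

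Omt2a: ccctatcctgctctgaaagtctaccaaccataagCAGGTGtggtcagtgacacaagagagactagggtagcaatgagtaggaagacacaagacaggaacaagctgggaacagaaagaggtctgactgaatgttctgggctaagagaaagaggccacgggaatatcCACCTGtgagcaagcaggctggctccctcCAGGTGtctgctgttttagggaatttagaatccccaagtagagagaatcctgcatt

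Omt2b: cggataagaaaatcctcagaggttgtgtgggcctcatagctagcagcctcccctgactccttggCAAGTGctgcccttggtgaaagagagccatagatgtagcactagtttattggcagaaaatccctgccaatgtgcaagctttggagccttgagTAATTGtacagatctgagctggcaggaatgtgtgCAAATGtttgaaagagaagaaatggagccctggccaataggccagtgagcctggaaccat

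Oosp1: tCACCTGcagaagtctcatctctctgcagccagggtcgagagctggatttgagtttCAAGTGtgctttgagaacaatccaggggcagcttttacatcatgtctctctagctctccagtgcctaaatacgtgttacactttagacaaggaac

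Oosp2: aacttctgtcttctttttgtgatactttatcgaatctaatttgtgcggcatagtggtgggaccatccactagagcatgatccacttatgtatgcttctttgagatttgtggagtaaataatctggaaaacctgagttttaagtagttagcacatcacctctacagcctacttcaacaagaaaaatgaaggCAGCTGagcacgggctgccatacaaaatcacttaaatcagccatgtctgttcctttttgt

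Omt2a and Omt2b, whose levels varied together, held E-boxes at different distances from the start, 216, 85 and 56 bases before it in Omt2a and 186 and 60 bases before it in Omt2b. Only Omt2b held TAATTG, 94 bases before the start.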

How the data were processed

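The deposited table holds whole-number counts of reads per gene for 31 single-embryo Smart-seq3 libraries. The authors aligned the 5′ reads, which carry a molecular identifier, and the internal reads separately with STAR, kept 1 copy of each duplicate, and counted the merged reads with featureCounts, and the submitters' processing notes name the build mm10. The annotation and strand setting are not given in the sources used here. The authors corrected for batches that the labels do not give, so this correction could not be repeated.

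The 8571 genes kept by filterByExpr (minimum count 10, minimum total count 15) were tested with edgeR 4.0.16 (quasi-likelihood, TMM, Benjamini-Hochberg, adjusted p under 0.1, R 4.3.3), after a test on simulated data. The standard error is the log2 fold change divided by the square root of F. CPM used library totals, and RPKM used merged exon lengths of GENCODE vM21. Correlations and sign-flip tests used 100000 permutations and a pseudocount of 1 (Python 3.11.15, scipy 1.17.1). Depths of 532945 to 3088396 counts limit the precision of low values, and counting error is a lower bound since internal reads carry no identifier. The named genes were the members, the 5 tested genes with the highest and the 3 with the lowest rho with Oosp3, and up to 4 genes of highest mean CPM per list. Members and lists were chosen with earlier results of these data known. Alternatives were DESeq2 1.42.0, limma 3.58.1 voom with quality weights, ComBat-seq (sva 3.50.0) on 3 clusters estimated from the 1000 most variable genes, other scalings, filters and covariates, thinning and leaving out embryos. Cluster 2 held only control embryo 4 and SER embryo 15, and the embryos numbered 1 to 3 of both groups fell in cluster 1 with most others. Whether the clusters match the authors' batches is not known.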

Additional observations from a re-analysis of the deposited data

How the results depend on the processing

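Oosp3 was lower in SER-generated embryos under all 46 alternatives. Its log2 fold change of -1.95 was -1.17 by DESeq2, -1.40 with detected genes as a covariate and -0.89 by limma voom. By ComBat-seq and DESeq2 it was -0.90. It was -0.78 without control embryos 1 and 3, -0.90 without embryos numbered 1 to 3 in both groups, and -2.05 to -1.18 when 1 embryo was left out. The 3 ways of leaving out several embryos were chosen after seeing the data. Oosp2, Omt2a, Omt2b and Zp1 also kept their sign in all 46 alternatives. Oosp1 turned to 0.26 by voom and 0.44 without control embryos 1 and 3, and was -0.22 without embryos numbered 1 to 3 in both groups. By voom Zp2 turned to -0.15, Zp3 to 0.20 and Gdf9 to -0.15. Zp3 also turned to 0.032 with a replicate block, 0.21 without control embryos 1 and 3 and 0.34 without embryos numbered 1 to 3. Gdf9 also turned to -0.23 with the library total as a covariate, -0.046 with the replicate block, -0.12 with the estimated clusters, -0.17 by ComBat-seq and DESeq2, -0.0048 without embryos numbered 1 to 3 and -0.18 without control embryo 4 and SER embryo 15. With 1 embryo left out, Zp3 ran from -0.18 to 0.028 (above 0 without control embryo 1 or 3), Bmp15 from -0.53 to 0.045 (above 0 without control embryo 4) and Gdf9 from -0.25 to 0.18 (at -0.25 without SER embryo 15). The causes were not tested. No scaling or other setting moved the median of all genes by over 0.1 on the log2 scale.

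The number of genes called, 0 by edgeR, was 504 without the filter, 49 by DESeq2, 848 by voom, 41 with the estimated clusters and 132 by ComBat-seq and DESeq2, and 0 whenever 1 embryo was left out. Of the other 9 members, 1 was called in 1 alternative: Bmp15 by voom (log2 fold change -0.79, adjusted p = 0.086).

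Of the 9 members, 0 passed with Oosp3 by Spearman's rho, 6 with TMM-scaled totals, 4 with the library total and detected genes removed, 1 with cluster means removed, 3 without control embryos 1 and 3, and 3 without embryos numbered 1 to 3. The 4 members past by Pearson's r were replaced by Zp2, Gdf9 and Bmp15 without control embryos 1 and 3 or without embryos numbered 1 to 3. The order of levels had 4 to 6 distinct neighbours, and on CPM without length correction Oosp3 and Oosp1 were no longer distinct.

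Same-numbered embryos correlated over 0.1 in 8 of 15 pairs (-0.37 to 0.49), and 4 of 15 correlated best with their own number, so the numbers were not taken as pairs. With the replicate block the log2 fold change of Oosp3 was -1.19 and 0 genes were called.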
